A study of Mus musculus with 58 samples.

Results

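Chemokine ligands are small secreted proteins that direct the movement of leukocytes, and adipose stem cells (ASC) are one of their sources in fat. The ligands were taken from a whole-transcriptome count matrix of sorted ASC by gene name: every row whose Ensembl mouse identifier matched a symbol made of Ccl or Cxcl and a number, together with Cx3cl1, Xcl1, Pf4 and Ppbp. The rule found 40 genes among 56953 rows. Reads were present for 37 of them, and 25 passed the filter on low counts (at least 5 reads in more than 3 libraries) and were tested with the other genes, 12464 in all. The cells came from inguinal white adipose tissue (iWAT) of C57BL6/J mice that had been castrated or ovariectomized at 4 weeks of age, or of age-matched controls, all terminated at 10 weeks after a 4 h fast. CD45-/CD31-/CD34+ cells were separated by flow cytometry into DPP4- (ASC1) and DPP4+ (ASC2) populations, and 58 Smart-seq3 libraries were kept by the study: control male ASC1 (n = 7) and ASC2 (n = 8), castrated male ASC1 and ASC2 (n = 8 each), control female ASC1 and ASC2 (n = 8 each), ovariectomized female ASC1 (n = 3) and ASC2 (n = 8). No labels tie an ASC1 library to an ASC2 library of the same mouse, so each library was treated as a separate sample and p-values measure the spread between libraries.

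As background, chemokines act through G protein-coupled receptors on leukocytes. Ligands of CCR2 (Ccl2, Ccl7, Ccl12) recruit monocytes, eotaxins such as Ccl11 recruit eosinophils through CCR3, and ligands of CCR1 act on monocytes and macrophages. CXCR2 ligands recruit neutrophils, CXCR3 ligands recruit activated T cells, and Cxcl12, Cxcl13 and Cxcl14 are largely constitutive stromal products. In adipose tissue, stromal Ccl2 is known for drawing in monocytes, and Cxcl14 is a known marker of an ASC1 subset. The CCR2 ligands, Ccl8 and Ccl11 lie side by side in a single gene cluster.

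Several features of the libraries bear on every value below. Total counts ranged from 106566 to 1421550 per library, with a median of 682423. Levels are given as CPM, counts scaled to a common library size with TMM factors. The sort was visible in Dpp4 itself, whose mean was 236 ± 61.0 CPM (SD, n = 8) in control male ASC2 and 6.80 ± 5.56 (SD, n = 7) in control male ASC1. Reads of sex chromosomes went against the label of a library or mixed both sexes in 4 of 7 control male ASC1, 7 of 8 castrated male ASC1, 5 of 8 control female ASC1, 4 of 8 control male ASC2 and 6 of 8 control female ASC2 libraries, and in none of the other 3 groups (at least 20 Xist reads in a library labelled male, or at least 3 reads of the Y-linked Ddx3y, Eif2s3y, Uty and Kdm5d in one labelled female). For this reason, male and female below mean the labels. Castrated male ASC1 libraries held 13 to 97 Xist and 0 to 4 Y-linked reads. Castrated male ASC2 libraries held 0 to 5 and 21 to 75. Differences between these groups therefore cannot be told apart from a difference in sex-chromosome reads. Castration effects in ASC1 carry the same limit, since control male ASC1 held 5 to 77 Y-linked reads. The 3 ovariectomized ASC1 libraries stood apart: the summed level of 4 fibroblast markers was 43144 to 45105 CPM there and 3024 to 13976 in the other 55 libraries. Between those 3 libraries and the others, the median of all tested genes was shifted as well, by -0.34 log2 units against control female ASC1 and by 0.37 for ovariectomized ASC2 over ASC1. Macrophage and leukocyte markers, which the CD45- gate should have removed, were also present. All 10 listed markers had reads, led by Lyz2, and their summed level ran from 600 to 6623 CPM in control male ASC1, 727 to 3514 in control female ASC1, 662 to 977 in castrated male ASC1, 175 to 390 in ovariectomized ASC1, 751 to 2053 in control male ASC2, 1471 to 6794 in castrated male ASC2, 861 to 1887 in control female ASC2 and 642 to 1189 in ovariectomized ASC2. In a bulk library, fewer cells of a type and less RNA per cell cannot be told apart.

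Ligand levels differed between sets of plate rows in several groups, as far as the row letters in the titles show. These sets were described after the values were seen and were not tested. In ovariectomized ASC2, Ccl2 was 213 to 276 CPM in rows I to L and 1310 to 1798 in rows M to P, whereas Cxcl16 was 187 to 209 in the former and 32.2 to 50.4 in the latter. In castrated male ASC1, rows I and J held 1540 to 1803 CPM of Ccl2 and 21.7 to 23.3 of Cxcl16, and rows K to P held 334 to 496 and 244 to 357. The same pair of ligands therefore took opposite positions in both groups. In control male ASC1, rows B to D (no Xist read) had 1567 to 1639 CPM of Ccl6 and 61 to 97 of Ccl8, against 290 to 344 and 367 to 534 in rows E to H (29 to 82 Xist reads). Control female ASC1 split as well. Cxcl12 was 278.5 to 371 CPM there in rows E and F (no Y-linked read). It was 1045 to 1360 in rows B, C, D, G and H (33 to 55 Y-linked reads). Ccl8 did not split in that group, at 62.1 to 83.5 and 60.8 to 104 CPM in the same sets. In row A of that group, with 1 Y-linked read, Cxcl12 was 623 CPM, between the 2 sets. The rows of a set were not always adjacent: in control female ASC2, Ccl2 was 194 to 254 CPM in rows C and D, 413 in row E and 1075 to 1778 in rows A, B, F, G and H. Each combination of labelled sex and population had its own plate column in the titles, so column cannot be told apart from them. Control libraries occupy rows A to H and operated libraries rows I to P, so plate row and operation cannot be told apart either. Rises, falls and effects of castration or ovariectomy below therefore mean differences between operated and control libraries.

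**Figure D1:**
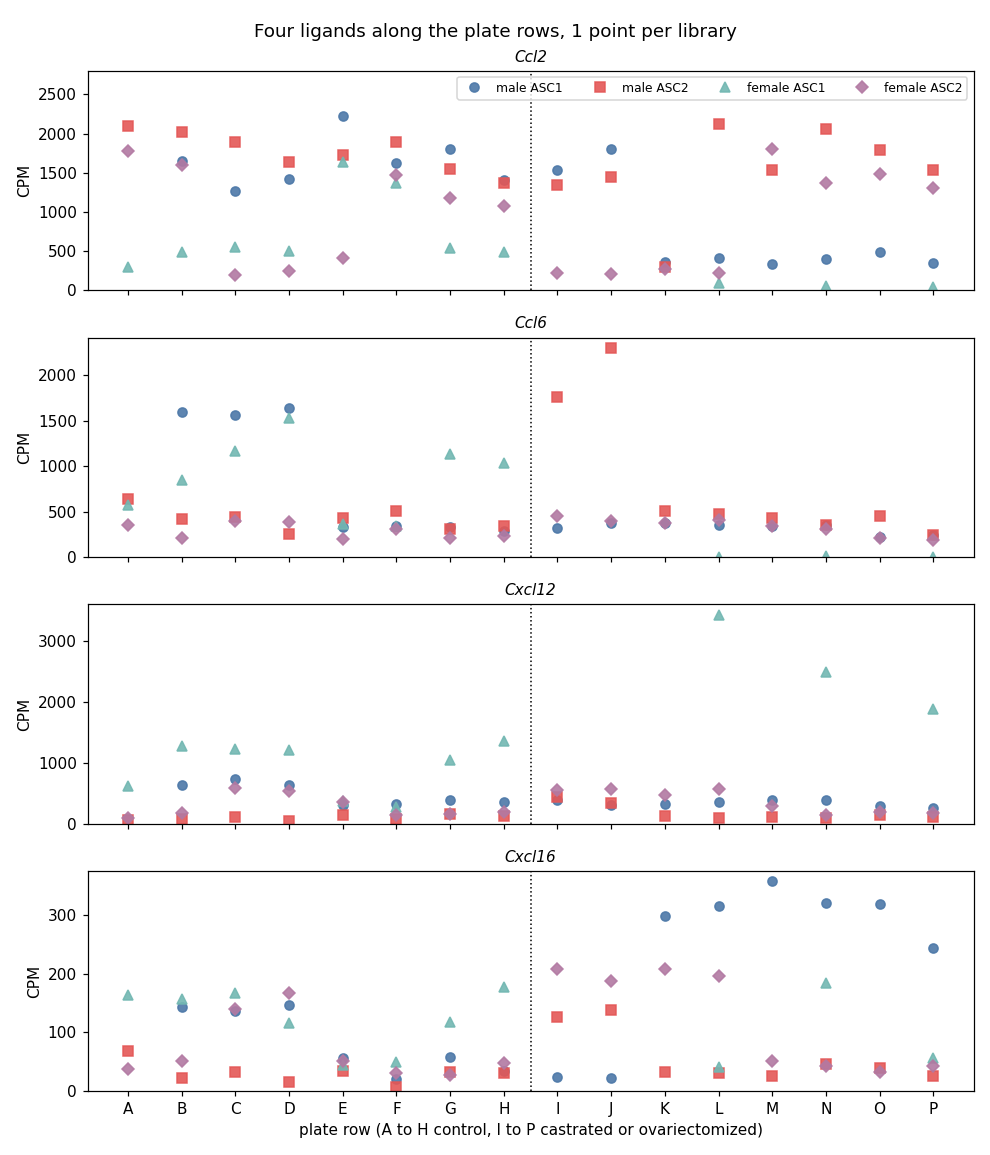
CPM of Ccl2, Ccl6, Cxcl12 and Cxcl16 in each library (1 point each) by plate row, with the dotted line between control rows A to H and operated rows I to P; colours give the labelled sex and population. Some groups hold separate levels, as in ovariectomized ASC2, where Ccl2 is 213 to 276 CPM in rows I to L and 1310 to 1798 in rows M to P.

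Promoter sequence was available from RefSeq (GRCm38.p6, while the study counted on GRCm39) for 29 of the 40 genes. The 250 bases before the annotated start are printed for 5 of them, because all of them differed between ASC1 and ASC2 in at least 1 condition and together they show each motif searched. Capitals mark every match, on either strand, to 4 motifs. The TATA box was searched as TATAAA and the site of NF-kappaB, an inflammatory transcription factor, as GGGANNTTC. For AP-1, formed by Fos and Jun proteins, the letters were TGANTCA, and for the interferon response they were GAAANNGAA.
Cxcl1, chr5:90890995-90891244, plus strand: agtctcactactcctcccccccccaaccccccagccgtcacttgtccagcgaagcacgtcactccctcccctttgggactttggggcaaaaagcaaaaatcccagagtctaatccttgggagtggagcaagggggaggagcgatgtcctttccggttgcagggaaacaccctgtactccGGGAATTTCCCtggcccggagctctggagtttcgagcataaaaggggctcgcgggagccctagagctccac
Cxcl2, chr5:90903649-90903898, plus strand: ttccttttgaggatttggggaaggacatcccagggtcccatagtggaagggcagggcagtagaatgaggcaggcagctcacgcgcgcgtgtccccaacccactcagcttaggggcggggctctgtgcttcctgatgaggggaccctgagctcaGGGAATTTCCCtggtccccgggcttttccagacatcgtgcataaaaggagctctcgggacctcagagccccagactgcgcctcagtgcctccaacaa
Cxcl10, chr5:92348890-92349139, minus strand: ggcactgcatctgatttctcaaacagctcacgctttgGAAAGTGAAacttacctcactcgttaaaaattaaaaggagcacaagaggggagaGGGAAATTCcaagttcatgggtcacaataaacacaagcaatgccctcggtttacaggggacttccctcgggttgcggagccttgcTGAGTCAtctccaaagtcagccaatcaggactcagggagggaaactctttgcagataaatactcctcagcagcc
Cxcl13, chr5:95956689-95956938, plus strand: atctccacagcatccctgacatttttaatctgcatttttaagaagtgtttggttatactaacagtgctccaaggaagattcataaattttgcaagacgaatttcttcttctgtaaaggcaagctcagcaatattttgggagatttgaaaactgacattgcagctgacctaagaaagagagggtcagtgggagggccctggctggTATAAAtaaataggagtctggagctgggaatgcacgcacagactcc
Ccl8, chr11:82114935-82115184, plus strand: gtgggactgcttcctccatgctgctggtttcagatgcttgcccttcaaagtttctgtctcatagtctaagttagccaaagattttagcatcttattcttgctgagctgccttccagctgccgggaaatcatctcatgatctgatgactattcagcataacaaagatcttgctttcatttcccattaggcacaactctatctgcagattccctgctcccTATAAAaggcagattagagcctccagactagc

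Cxcl1 and Cxcl2 each held a pair of overlapping NF-kappaB matches, which form a single palindromic stretch beginning 71 and 97 bases before the start. Cxcl10 held 1 match each to the NF-kappaB, AP-1 and interferon motifs. Neither Cxcl13 nor Ccl8 held an NF-kappaB match in this window, and each had 1 TATA box. Over the 35 windows of the 29 ligands (some have several starts), 17.1% held an NF-kappaB match against 3.23% of all 32851 windows of the same length, 31.4% against 12.4% a TATA box, 14.3% against 6.75% an AP-1 match and 17.1% against 7.13% an interferon match. These matches describe letters only. The shares leave out the ligands without a window, among them Ccl2, Ccl4, Ccl5, Ccl7, Ccl11, Cxcl5 and Cxcl16.

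Per length of transcript, the ligands spanned several orders of magnitude. Averaged over all libraries, Ccl2 came first with 1013 CPM per kb of its longest transcript, followed by Ccl7 (640.1), Ccl6 (366), Ccl11 (357), Ccl8 (308) and Pf4 (306). Cxcl12 followed with 88.9 CPM per kb and Cxcl16 with 38.2, and the other 17 tested ligands were between 0.99 and 33.2. The summed CPM of all members was 5345 ± 626 (SD, n = 7) in control male ASC1 and 4154 ± 555 (SD, n = 8) in control male ASC2, and 3071 ± 1204 (SD, n = 8) in castrated male ASC1. It was 3927 ± 642 and 2786 ± 631 (SD, n = 8 each) in control female ASC1 and ASC2.

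**Figure D2:**
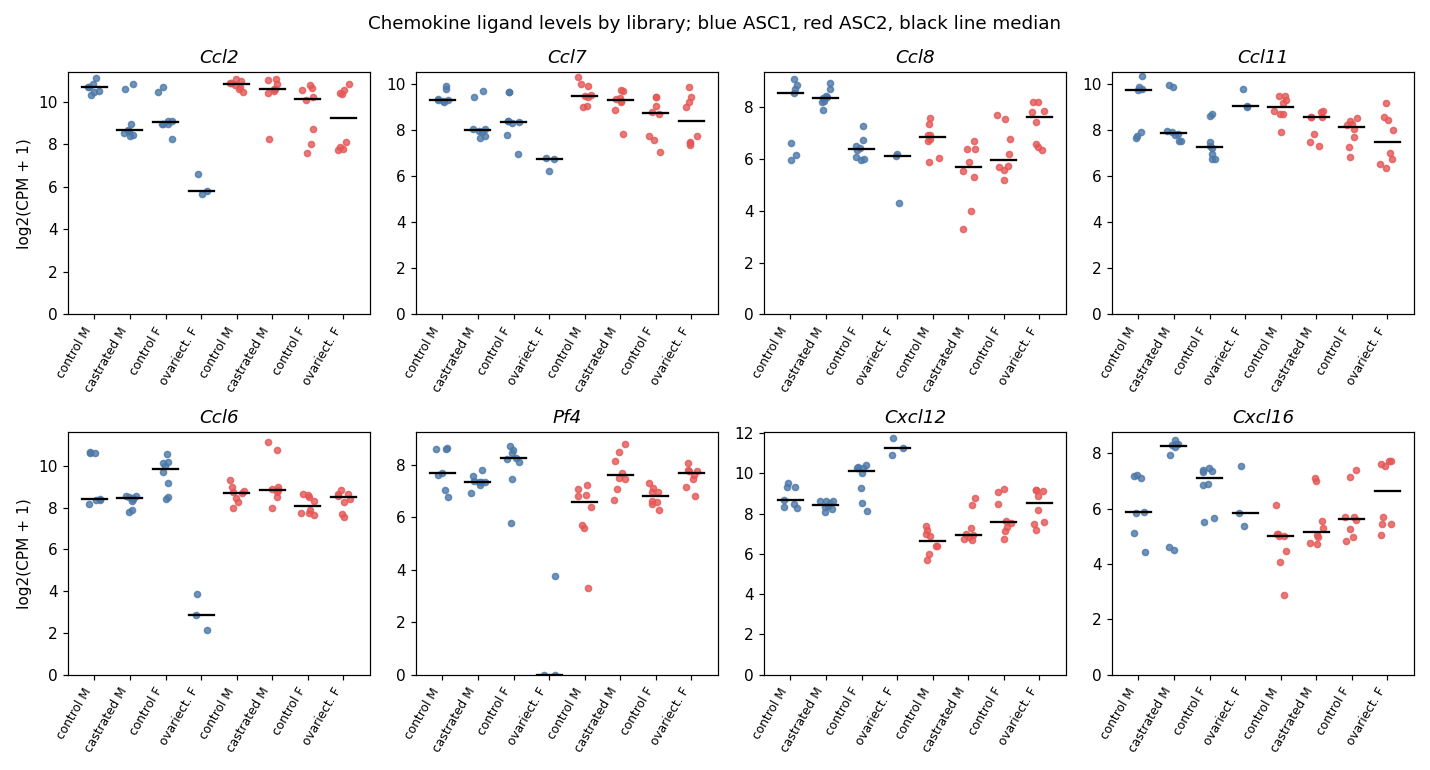
log2(CPM + 1) of 8 abundant ligands in each library (points), with the group median as a black line; blue is ASC1, red is ASC2, M male and F female by label. Ccl6 is lowest in the 3 ovariectomized ASC1 libraries, where Cxcl12 is highest (1895 to 3434 CPM), and several groups split into separate levels.

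Ligands were called in a larger share than genes at large in 13 of 14 comparisons, which reuse the same libraries and are not separate evidence. An edgeR quasi-likelihood test with Benjamini-Hochberg adjustment over all genes was used, at an adjusted p below 0.05. Between ASC2 and ASC1, 2 of 25 members were higher and 9 lower in control males (44% called, against 12.2% of all genes), 5 higher and 3 lower in castrated males (32% against 9.09%), 3 higher and 6 lower in control females (36% against 6.11%), and 8 higher and 7 lower in ovariectomized females (60% against 35.4%). After castration, none rose and 5 fell in ASC1 (20% against 2.36%), and 3 rose and 2 fell in ASC2 (20% against 6.96%). After ovariectomy, 8 rose and 7 fell in ASC1 (60% against 34.8%), and 2 fell in ASC2 (8% against 2.09%). Of control males against control females, 3 were higher and 1 lower in ASC1 (16% against 0.289%), and 3 were lower in ASC2 (12% against 6.5%). The effect of castration differed between ASC2 and ASC1 for 3 members (12% against 2.41%), that of ovariectomy for 12 (48% against 34.8%), and the castration and ovariectomy effects in ASC2 differed for 1 (4% against 0.602%). No member's difference between ASC2 and ASC1 depended on the labelled sex of controls (0 of 25 by edgeR, against 0.128% of all genes; 0 by DESeq2, and 6 at an unadjusted p under 0.05). The 4 comparisons of ASC2 with ASC1 share their libraries with the effects of the operations, so their values are given side by side below and not as separate evidence. Without the libraries whose sex-chromosome reads went against or mixed their labels, the ASC2 and ASC1 difference of control females kept 1 of its 9 calls (Cxcl13, with 2 libraries left in ASC2) and the ASC1 sex comparison none of 4. Castrated ASC1 then has 1 library left, row P, so its comparisons could not be repeated in this way. Row P held 13 Xist reads, under the cut-off of 20, and 0 Y-linked reads in 235104 counts. Its reads thus resembled those of the other libraries of that group, with 0 to 4 Y-linked reads.

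**Figure D3:**
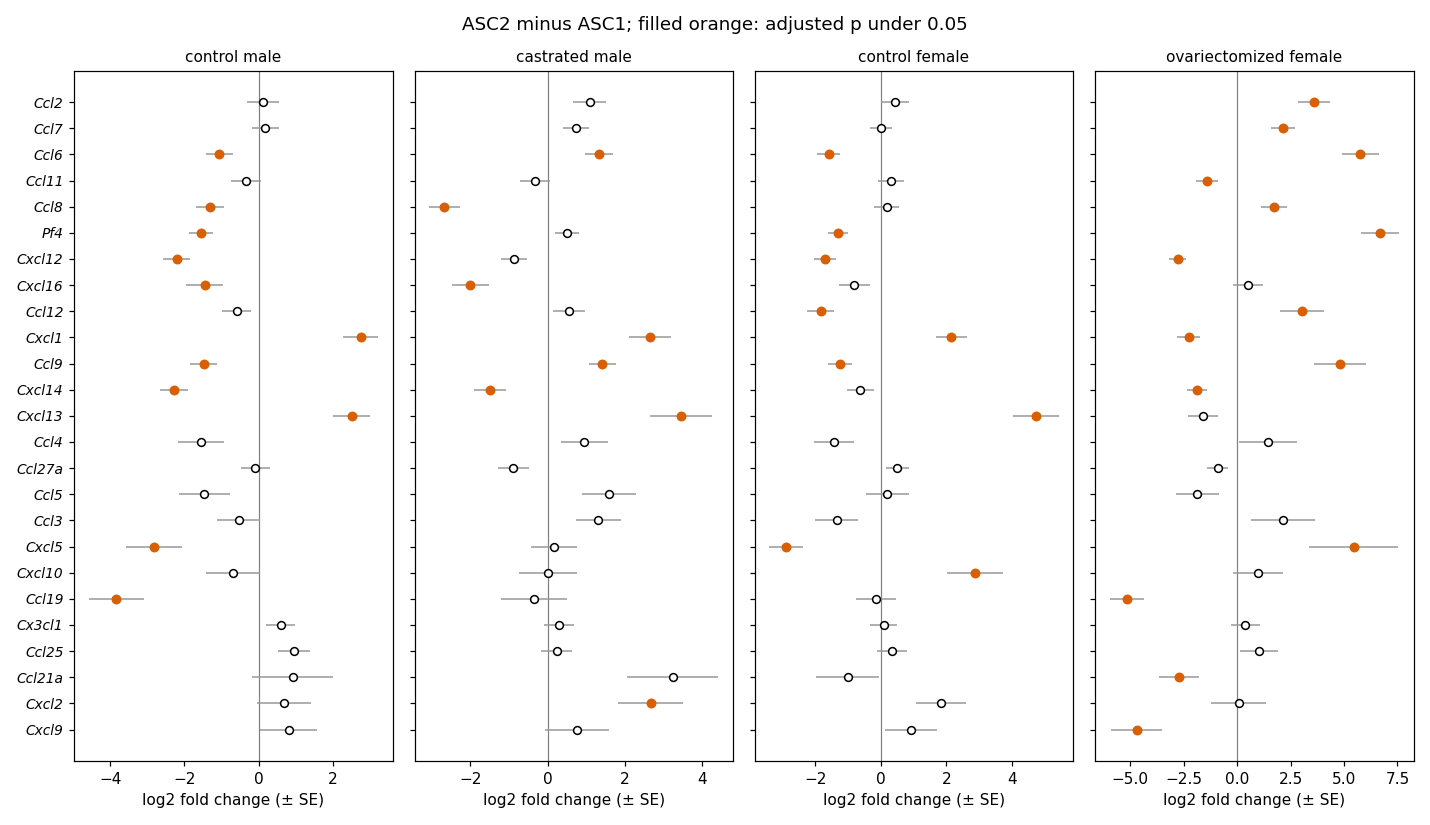
log2 fold change of ASC2 over ASC1 (± SE) for the 25 tested ligands in 4 conditions, each panel with its own scale; orange points have an adjusted p under 0.05. Cxcl1 and Cxcl13 are higher in ASC2 of the 3 conditions other than ovariectomy, and Cxcl5 in ovariectomized ASC2 is a fitted value against a group with no read.

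The CCR2 ligands Ccl2 and Ccl7, both monocyte chemoattractants, had the highest levels per kb averaged over all libraries and did not differ detectably between ASC1 and ASC2 of control males. Ccl2 was 1270 to 2227 CPM (median 1624) in control male ASC1 and 1376 to 2100 (median 1808) in ASC2, a log2 difference of 0.12 ± 0.43 (SE, adjusted p = 0.894). Lower libraries appeared in the other groups: the lowest, median and highest were 302, 521 and 1633 CPM in control female ASC1, 194, 1127 and 1778 in control female ASC2, 334, 403 and 1803 in castrated male ASC1, 300.4, 1535 and 2118 in castrated male ASC2, and 213, 793 and 1798 in ovariectomized ASC2. These ranges overlap, and the castration effect in ASC1 was -1.19 ± 0.43 (adjusted p = 0.148). Only ovariectomized ASC1 fell outside them, with 94.9, 55.1 and 49.5 CPM in its 3 libraries. Its log2 fold change there was -3.38 ± 0.73 against control female ASC1 (adjusted p = 0.000234), and ovariectomized ASC2 was higher than ovariectomized ASC1 by 3.60 ± 0.74 (adjusted p = 0.000108). Ccl7 moved alongside: it was 111, 73.4 and 105 CPM in those libraries against 125 to 816 in control female ASC1 (log2 fold change -2.08 ± 0.56, adjusted p = 0.0027), with no library in common between the ranges.

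Ccl8, encoded beside the CCR2 ligands, was higher in ASC1 than ASC2 of castrated males, where population and sex-chromosome reads cannot be told apart. Its lowest, median and highest CPM were 236, 325 and 481 in castrated male ASC1 and 8.71, 51.1 and 101 in castrated male ASC2, which do not overlap (log2 fold change -2.67 ± 0.40, adjusted p = 2.82e-06). In control males the ranges were 60.7 to 534 and 58 to 189 and overlapped (-1.31 ± 0.38, adjusted p = 0.0162). That difference was carried by control male ASC1 rows E to H, and without the libraries whose sex-chromosome reads went against or mixed their labels it turned to 0.24 (adjusted p = 0.829). Ccl8 was also higher in control male than control female ASC1 (1.76 ± 0.40, adjusted p = 0.0188), and this too turned without those libraries, to -0.31 (adjusted p = 0.926). In ovariectomized mice it was 1.71 ± 0.60 higher in ASC2 (80.8 to 292 CPM) than in ASC1 (72, 68.8 and 18.6; adjusted p = 0.0207), a call lost without the library of row L (adjusted p = 0.0528) or of row P (adjusted p = 0.0992). In ASC2 its castration effect minus its ovariectomy effect was -2.09 ± 0.54 (adjusted p = 0.0490), although neither effect passed alone. That call was lost with robust estimation (adjusted p = 0.0762), with only the compared groups (adjusted p = 0.0735), without the libraries of discordant sex-chromosome reads (-0.68, adjusted p = 0.941) and with the leukocyte marker level as a covariate (-1.34, adjusted p = 0.227). Ccl12, another CCR2 ligand, was low, at 6.01 to 55.5 CPM in control female ASC1 and 4.75 to 15.3 in ASC2 (-1.84 ± 0.42, adjusted p = 0.00251). That call was not kept without the libraries of discordant sex-chromosome reads. Only 2 reads of Ccl12 were found in ovariectomized ASC1, and the ratio of control female ASC1 to it was 19.2 (95% interval 5.21 to 160 for counting error, adjusted p = 0.000506).

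Ccl11, eotaxin, which attracts eosinophils, rose in ovariectomized ASC1. It was 897, 519 and 533 CPM in the 3 libraries and 108 to 417 (median 154) in control female ASC1, without overlap (1.66 ± 0.50, adjusted p = 0.00767). With the leukocyte marker level as a covariate this difference was -0.04 (adjusted p = 0.969). The leukocyte sums of these groups did not overlap (175 to 390 and 727 to 3514 CPM), so that fit cannot separate the sum from the operation. Without the library of row L the difference was 1.32 (adjusted p = 0.115). Control male ASC1 held 203 to 1301 CPM (median 867), higher than control female ASC1 by 1.70 ± 0.41 (adjusted p = 0.0445), with overlapping ranges; the difference turned to -0.57 (adjusted p = 0.795) without the libraries of discordant sex-chromosome reads. Neither castration effect on Ccl11 passed (-0.71 ± 0.40 in ASC1, adjusted p = 0.479, and -0.69 ± 0.39 in ASC2, adjusted p = 0.302). Ccl24, the other eotaxin of the mouse, had 18 reads in all and was not tested.

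Ccl6 and Ccl9, CCR1 ligands that myeloid cells are known to make, moved together and in opposite directions in castrated and control males. In control males, Ccl6 was lower in ASC2 than ASC1 (-1.06 ± 0.36, adjusted p = 0.0443) and so was Ccl9 (-1.48 ± 0.36, adjusted p = 0.004). In castrated males both were higher in ASC2, Ccl6 by 1.33 ± 0.36 (adjusted p = 0.00994) and Ccl9 by 1.42 ± 0.36 (adjusted p = 0.0059). Ccl6 was 290 to 1639 CPM (median 344) in control male ASC1, 252 to 636 (median 422) in control male ASC2, 223 to 381 (median 348) in castrated male ASC1 and 249 to 2299 (median 465.5) in castrated male ASC2. The medians of the 4 groups are thus close, and the highest values came from control male ASC1 rows B to D (1567 to 1639) and castrated male ASC2 rows I and J (1764 to 2299). Those 5 libraries also held 5438 to 6794 CPM of leukocyte markers, the highest in the study. Both ligands were lower in castrated than control male ASC1 (Ccl6 -1.42 ± 0.37, adjusted p = 0.0198, and Ccl9 -1.34 ± 0.37, adjusted p = 0.0328). Ccl9 was higher in castrated than control male ASC2 (1.56 ± 0.35, adjusted p = 0.00317). With the leukocyte marker level as a covariate, these ASC1 effects were -0.06 (adjusted p = 0.945) and -0.14 (adjusted p = 0.862), and the castrated male difference of Ccl6 between ASC2 and ASC1 turned to -0.44 (adjusted p = 0.221) and that of Ccl9 to -0.025 (adjusted p = 0.977). The control male difference of Ccl6 was lost with robust estimation (adjusted p = 0.0598), with only the compared groups (adjusted p = 0.0786) and with the plate row as a block (-0.75, adjusted p = 0.202).

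In control females, Ccl6 was 339 to 1530 CPM (median 940) in ASC1 and 196 to 399 (median 276) in ASC2 (-1.59 ± 0.36, adjusted p = 0.00208), and Ccl9 differed the same way (-1.24 ± 0.36, adjusted p = 0.0237). Neither call was kept without the libraries of discordant sex-chromosome reads. Rows E and F of control female ASC1 (no Y-linked read) held 339 to 363 CPM of Ccl6 and 727 to 759 of leukocyte markers. The other rows of that group held 571 to 1530 and 1909 to 3514. In ovariectomized ASC1, Ccl6 was 3.43, 13.8 and 6.19 CPM, far below every other library, whose lowest value was 188. The log2 fold change from control female ASC1 was -7.13 ± 0.86 (adjusted p = 1.81e-09). Ccl9 had 1 read there, and the ratio of control female ASC1 to it was 121 (95% counting interval 21.5 to 4773, adjusted p = 3.18e-06). The summed leukocyte markers were at their lowest in the same 3 libraries, with Adgre1 at 0 reads, but not every marker was: of 9 tested, 5 were lower and 1 higher than in control female ASC1 (Cd74, of antigen-presenting cells, 2.89 ± 0.51, adjusted p = 9.76e-06). Cd79a, a B cell marker, was higher there too (5.50 ± 1.01, adjusted p = 2.14e-05), and the lymphocyte and mast cell list averaged 34.1 CPM against 3.54 to 17.4 in the other groups. Ccl3, Ccl4 and Ccl5, inflammatory CC chemokines, were scarce, with group means between 0.38 and 17.9 CPM, and passed in none of the 10 comparisons of groups.

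**Figure D4:**
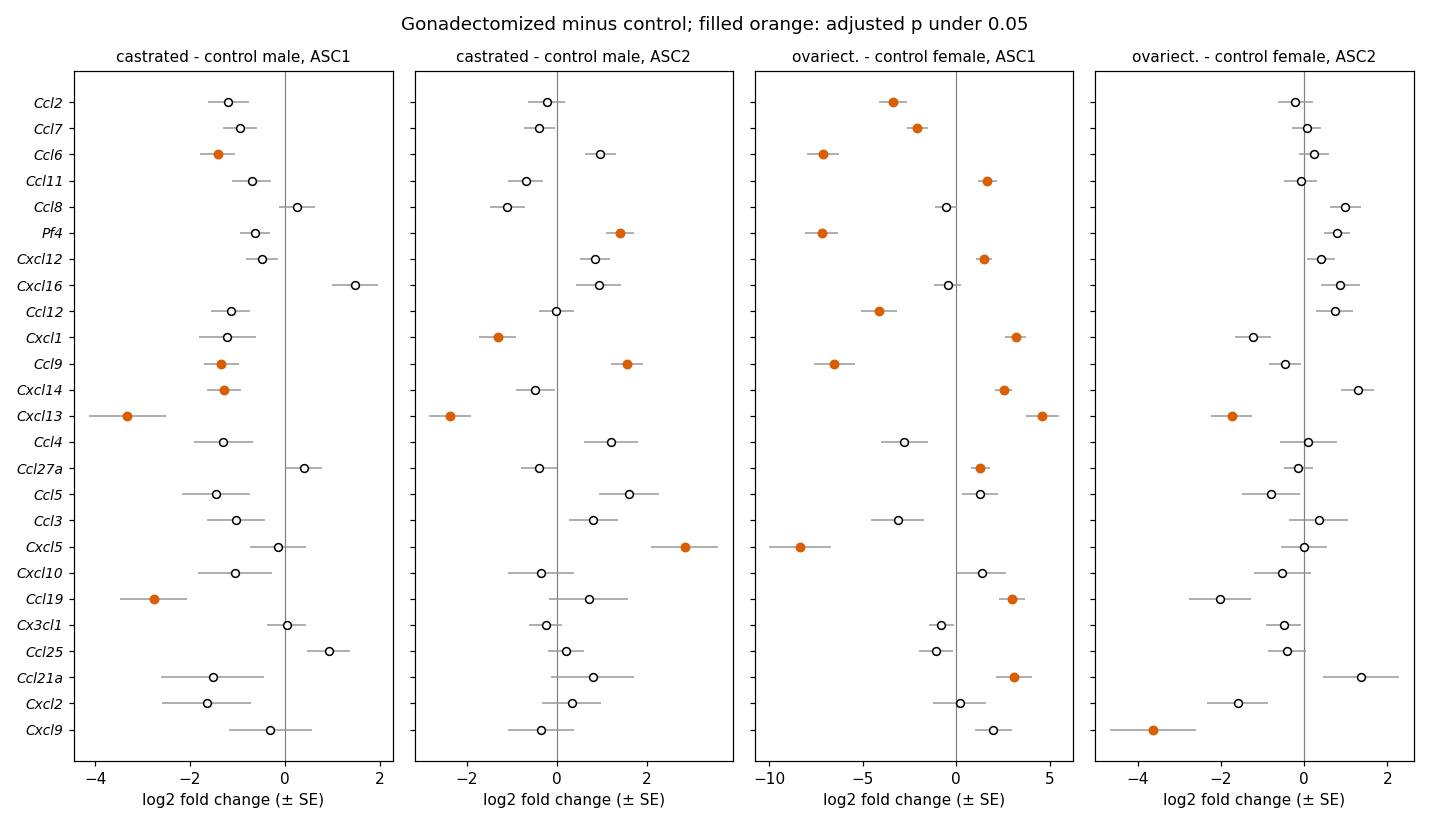
log2 fold change of gonadectomized over control mice (± SE) for the 25 tested ligands in males and females, ASC1 and ASC2, each panel with its own scale; orange points have an adjusted p under 0.05. In ovariectomized ASC1 (n = 3), 15 ligands pass, and in ovariectomized ASC2 only Cxcl13 and Cxcl9.

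Among the CCR7 ligands, which guide dendritic cells and T cells to lymph nodes, Ccl19 was 19.4, 41.3 and 61.9 CPM in ovariectomized ASC1. It was 0 to 14.5 in control female ASC1, and the difference was 2.99 ± 0.71 (adjusted p = 0.000742). In control males Ccl19 was 4.36 to 15.3 CPM in ASC1 and 0 to 1.57 in ASC2, where 3 reads were found (ratio 18.4, 95% counting interval 5.93 to 92.6, adjusted p = 0.000213), and the ranges did not overlap. In castrated male ASC1 it was lower (0 to 4.72 CPM, -2.77 ± 0.70 against control male ASC1, adjusted p = 0.0162). Ccl21a was below 10 CPM in each library outside ovariectomized ASC1, in which it was 19.4, 22.9 and 0 (3.07 ± 0.95 above control female ASC1, adjusted p = 0.00952; 2.73, adjusted p = 0.119, without the library of row L). Its near-identical copy Ccl21b had 0.5 of an estimated read in all, so the division of reads between them is uncertain. Ccl27a, a skin-type CC chemokine, was 17.1, 36.7 and 31.0 CPM in ovariectomized ASC1 and 3.21 to 18.7 in control female ASC1 (1.28 ± 0.50, adjusted p = 0.0406). The call was lost without the library of row N (1.04, adjusted p = 0.164) or of row P (1.21, adjusted p = 0.0892). Ccl27b is a close copy and had 3.61 estimated reads. Ccl25 stayed between 0 and 16.2 CPM in every library and passed nowhere.

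Cxcl1, a CXCR2 ligand that recruits neutrophils, was higher in ASC2 of the 3 conditions other than ovariectomy. It was 3.47 to 26.9 CPM in control male ASC1 and 31.8 to 215 in ASC2, without overlap (2.74 ± 0.47, adjusted p = 3.52e-05). Control females gave 6.56 to 18.3 and 13.6 to 155 (2.15 ± 0.46, adjusted p = 0.00124), and castrated males 0 to 11.8 and 6.37 to 90.0 (2.64 ± 0.55, adjusted p = 0.000626). The control female call was not kept without the libraries of discordant sex-chromosome reads. In ovariectomized mice the order was the opposite: the 3 ASC1 libraries held 215, 87.2 and 61.9 CPM and ASC2 3.85 to 51.3 (-2.26 ± 0.53, adjusted p = 0.000594). Immediate early genes (Fos, Egr1 and 12 others, known to be induced by tissue dissociation) moved with it. Their summed level was 309 to 824 CPM in control male ASC1 and 1345 to 3098 in ASC2, 295 to 513 and 604 to 4707 in control females, 171 to 309 and 401 to 1766 in castrated males, and 3282 to 4721 and 408 to 1628 in ovariectomized females. With that sum as a covariate, the difference of Cxcl1 between ASC2 and ASC1 was 0.43 (adjusted p = 0.654) in control males and -0.63 (adjusted p = 0.722) in control females, and it turned to 0.30 (adjusted p = 0.721) in ovariectomized females. The immediate early sums of ASC1 and ASC2 did not overlap in any condition, so these fits cannot separate the sum from the population. The ovariectomized difference was also lost without the ASC1 library of row L (-1.44, adjusted p = 0.15). In ASC2, Cxcl1 was lower in castrated than control males (-1.32 ± 0.41, adjusted p = 0.0389). This effect was 0.048 (adjusted p = 0.964) with the immediate early sum as a covariate and -0.94 (adjusted p = 0.257) without the libraries of discordant sex-chromosome reads, and it did not pass with robust estimation (adjusted p = 0.0511), with only the compared groups (adjusted p = 0.104) or with the leukocyte covariate (adjusted p = 0.106).

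Cxcl2, a close relative of Cxcl1 with the same palindromic stretch in its promoter, was rare, with group means of 0.51 to 5.995 CPM. It was higher in ASC2 than ASC1 of castrated males, with 26 and 3 reads (ratio 7.97, 95% counting interval 2.44 to 41.2, adjusted p = 0.0350). The library of row K held 13 of the 26 reads, and without it the ratio was 4.56. The call was lost with no count filter (adjusted p = 0.061), with only the compared groups (adjusted p = 0.0758), with the plate row as a block (adjusted p = 0.149) and with the immediate early covariate (1.53, adjusted p = 0.445). Cxcl5, also a CXCR2 ligand, was highest in control female ASC1, at 16.03 to 119 CPM (median 52.9). In control male ASC1 it was 1.74 to 18.3 (-2.81 ± 0.54 male against female, adjusted p = 0.00219), and in control female ASC2 1.97 to 12.7, which does not overlap control female ASC1 (-2.88 ± 0.52, adjusted p = 8.89e-05). Neither call was kept without the libraries of discordant sex-chromosome reads. Within control female ASC1, Cxcl5 was 16.03 to 31.0 CPM in rows E and F (no Y-linked read). The other rows of that group held 38.3 to 119 CPM (1 to 55 Y-linked reads). No read of Cxcl5 was found in the 3 ovariectomized ASC1 libraries. Against a floor of 3 reads over that group (2.39 CPM), control female ASC1 was at least 24.5-fold higher (adjusted p = 6.99e-05). In ASC2, Cxcl5 was higher in castrated (0 to 27.6 CPM) than control males (0 to 4.24; 2.85 ± 0.75, adjusted p = 0.0127; 0.0585 with only the compared groups).

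Pf4 (platelet factor 4) binds CXCR3 and is best known from platelets and megakaryocytes, and Pf4 transcripts also occur in macrophages. It was lower in ASC2 than ASC1 of control males (8.92 to 149 against 109 to 400 CPM, -1.55 ± 0.33, adjusted p = 0.000666) and control females (77.0 to 156 against 54.1 to 417, -1.31 ± 0.32, adjusted p = 0.00448). The control female call for Pf4 was not kept without the libraries of discordant sex-chromosome reads. In ASC2 it was higher in castrated than control males (99.4 to 446 CPM, 1.41 ± 0.32, adjusted p = 0.00272). With the leukocyte marker level as a covariate this became 0.70 (adjusted p = 0.152). In ovariectomized ASC1, 2 reads were found (0, 0 and 12.4 CPM), and the ratio of control female ASC1 to it was 177 (95% counting interval 48.8 to 1460, adjusted p = 3.29e-09). The platelet markers Gp9 and Gp5 had no read in any library, while Itga2b averaged 1.5 to 23.8 CPM by group.

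The interferon-inducible CXCR3 ligands Cxcl9 and Cxcl10, which attract activated T cells, were low and uneven. Cxcl10 was 0 to 7.79 CPM in control female ASC1 and 2.80 to 54.3 in ASC2 (2.86 ± 0.85, adjusted p = 0.0283). That difference was -0.0046 (adjusted p = 1) with the immediate early sum as a covariate and 1.74 (adjusted p = 0.756) without the libraries of discordant sex-chromosome reads. In control male ASC1, Cxcl10 was 1.74 to 158 CPM, and the library of row B alone exceeded 15.7. Cxcl9 had 1 read in the 8 ovariectomized ASC2 libraries and 23 in control female ASC2 (ratio 21.7, 95% counting interval 3.53 to 895, adjusted p = 0.0440), a call lost with library-size scaling (adjusted p = 0.0504), with the immediate early covariate (adjusted p = 0.356) and without the libraries of discordant sex-chromosome reads (-2.30, adjusted p = 0.986). Cxcl11, the third of this family, had no read in any library, which allows up to 0.0750 CPM over the 58 libraries (3 reads of their total, counting error only).

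Cxcl12, the stromal ligand of CXCR4 and ACKR3, was higher in ASC1 than ASC2 of both control groups. In control males it was 312 to 733 CPM in ASC1 and 51.3 to 165 in ASC2, with no overlap (-2.21 ± 0.35, adjusted p = 9.51e-06). In control females it was 278.5 to 1360 and 107 to 593 (-1.69 ± 0.34, adjusted p = 0.000405), but this difference turned to 0.43 (adjusted p = 0.849) without the libraries whose sex-chromosome reads went against or mixed their labels. It was lower in control male than control female ASC2 (-1.45 ± 0.34, adjusted p = 0.00476). The ovariectomized ASC1 libraries held 3434, 2492 and 1895 CPM, the 3 highest of the study, above control female ASC1 by 1.49 ± 0.42 (adjusted p = 0.00375; 1.22, adjusted p = 0.0664, without the library of row L). Castrated males gave 272 to 398 and 101 to 442 CPM, and the difference of -0.87 ± 0.34 did not pass (adjusted p = 0.0924).

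Cxcl14, the ASC1 marker, was 56.0 to 90.3 CPM in control male ASC1 and 2.23 to 28.5 in control male ASC2, without overlap (-2.29 ± 0.38, adjusted p = 1.47e-05). It was lower in castrated male ASC1 (11.5 to 61.0, median 22.4, -1.29 ± 0.36, adjusted p = 0.0363, or 0.0533 with library-size scaling). Control female ASC1 held 7.26 to 41.7 CPM (median 15.1), without overlap with control male ASC1 (1.83 ± 0.38 male against female, adjusted p = 0.00585). The sex call was not kept without the libraries of discordant sex-chromosome reads. Within control female ASC1, rows E and F (no Y-linked read) held 32.1 to 41.7 CPM and the others 7.26 to 18.3. Within control male ASC1, rows B to D (no Xist read) held 56.0 to 60.7 CPM and rows E to H 71.5 to 90.3. Within castrated male ASC1, rows I and J held 52 to 61 CPM and rows K to P 11 to 25. In control females ASC1 and ASC2 did not differ detectably in Cxcl14 (-0.62 ± 0.41, adjusted p = 0.444). It was 98.3, 184 and 68.1 CPM in ovariectomized ASC1 (2.54 ± 0.46 above control female ASC1, adjusted p = 1.81e-05).

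Cxcl13, the B cell attractant, was higher in ASC2 of the 3 conditions other than ovariectomy. Control females gave 0 to 2.42 CPM in ASC1 and 7.34 to 134 in ASC2 (4.73 ± 0.69, adjusted p = 1.32e-06). Control males gave 0 to 17.1 and 12.6 to 127 (2.51 ± 0.50, adjusted p = 0.000288), and castrated males 0 to 3.33 and 3.19 to 20.8 (3.46 ± 0.80, adjusted p = 0.00221). In castrated against control males it was lower, by a log2 fold change of -3.32 ± 0.81 in ASC1 (adjusted p = 0.0128) and -2.37 ± 0.47 in ASC2 (adjusted p = 0.000624). In castrated male ASC1, 7 of 8 libraries had discordant sex-chromosome reads, so the ASC1 comparison could not be repeated without them. The Cxcl13 mean was 0.96 CPM there and 1.04 in control female ASC1. Castration and discordant labels therefore cannot be told apart in ASC1. Cxcl13 was also lower in ovariectomized than control female ASC2 (0 to 14.9 CPM, -1.74 ± 0.49, adjusted p = 0.0434). The last call was lost with library-size scaling (adjusted p = 0.0554), with only the compared groups (adjusted p = 0.133), without the libraries of discordant sex-chromosome reads (-1.23, adjusted p = 0.903) and with the immediate early covariate (-0.87, adjusted p = 0.757). Control female ASC2 row G held 134 CPM, and the mean of that group was 33.5 ± 43.0 CPM (SD, n = 8) with it and 19.1 ± 15.4 (SD, n = 7) without. In ovariectomized ASC1, by contrast, it was 25.1, 36.7 and 31.0 CPM (4.60 ± 0.88 above control female ASC1, adjusted p = 3.69e-05). Cxcl13 was thus the only member called in both castration comparisons with the same sign, and the castration effects did not differ detectably between ASC2 and ASC1.

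Cxcl16, made as a transmembrane protein and recognised by CXCR6, was 21.7 to 357 CPM (median 307) in castrated male ASC1 and 25.1 to 138 (median 35.1) in ASC2 (-2.001 ± 0.48, adjusted p = 0.00344). Its ranges in control male ASC1 and ASC2 were 20.8 to 146 and 6.36 to 68.8 (-1.46 ± 0.51, adjusted p = 0.0487, or 0.0715 with robust estimation). The highest level, 244 to 357 CPM, was reached in castrated male ASC1 rows K to P, yet rows I and J of the same group were lower than any control male ASC1 library but 1, and the castration effect did not pass (1.47 ± 0.49, adjusted p = 0.0989). Cx3cl1, the other transmembrane ligand, averaged 6.25 to 24.2 CPM and did not pass in any comparison.

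The remaining 15 members were at the edge of detection. Ppbp, Ccl22, Cxcl3, Ccl17, Ccl24 and Ccl28 had 17 to 55 reads each over 58 libraries and group means up to 3.99 CPM. Cxcl15, Ccl27b, Cxcl17, Ccl20, Ccl1 and Ccl21b had up to 4 reads each. Xcl1, Cxcl11 and Ccl26 had none.

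Within groups, 11 ligands followed the leukocyte marker sum and 2 the immediate early sum (edgeR slopes on the log2 sum in the fit of the 8 groups, chosen after the data were seen). Of the 25 members, 8 rose and 3 fell with the leukocyte sum, against 9.88% of all genes called. Ccl6 had a slope of 0.80 ± 0.07 log2 units per doubling (adjusted p = 9.91e-15), Ccl9 0.71 ± 0.08 (adjusted p = 6.1e-10), Ccl3 0.85 ± 0.17 (adjusted p = 0.000198), Cxcl16 0.71 ± 0.14 (adjusted p = 0.000196), Pf4 0.46 ± 0.09 (adjusted p = 0.000179) and Cxcl12 0.42 ± 0.10 (adjusted p = 0.00409). Ccl4 and Ccl12 also rose, and Ccl11 (-0.63 ± 0.11, adjusted p = 3.16e-05), Ccl8 (-0.50 ± 0.13, adjusted p = 0.00505) and Cxcl14 (-0.36 ± 0.11, adjusted p = 0.0295) fell. Without control male ASC1 rows B to D and castrated male ASC2 rows I and J, 2 of these slopes passed (Ccl6 and Ccl9), and with the plate row as a block 5 did (these, Pf4, Ccl8 and Ccl11). On the immediate early sum, Cxcl1 had a slope of 1.12 ± 0.14 (adjusted p = 6.69e-08) and Cxcl10 of 1.17 ± 0.34 (adjusted p = 0.0462), against 2.42% of all genes. Whether these transcripts came from leukocytes in the sort or from the ASC was not tested.

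**Figure D5:**
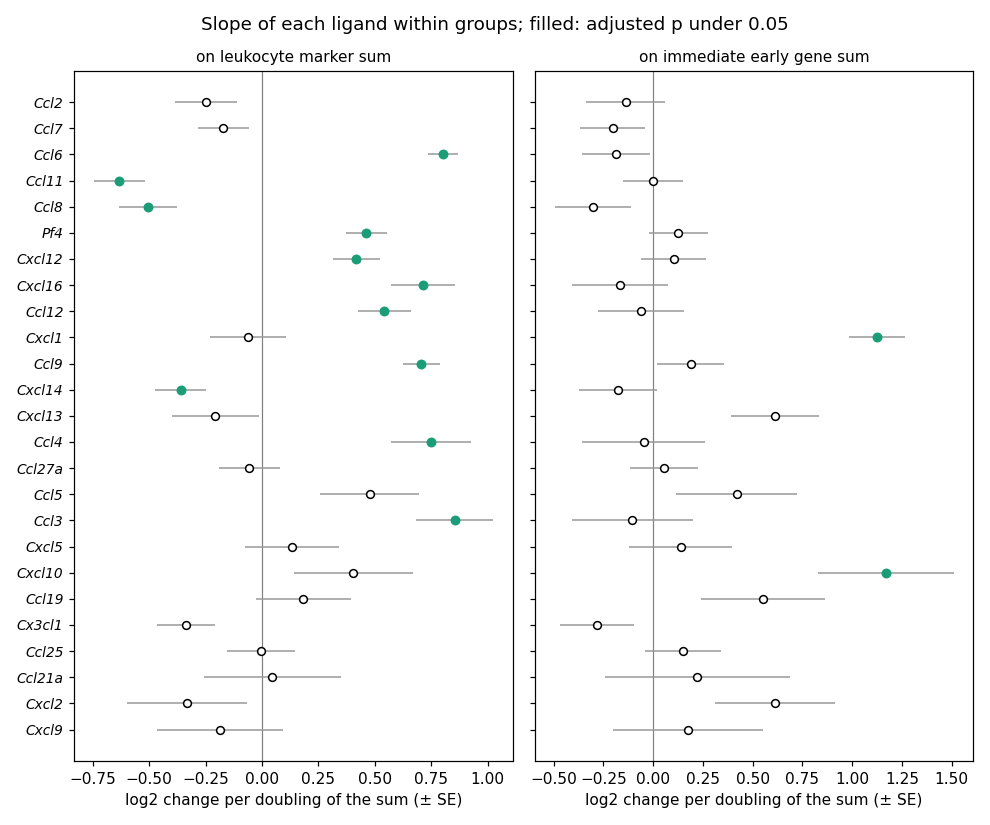
Slope of each tested ligand (log2 change per doubling, ± SE) on the summed leukocyte markers (left) and immediate early genes (right) within the 8 groups; filled points have an adjusted p under 0.05. Ccl6 (0.80) and Ccl9 (0.71) have the most precise positive slopes on the left, and Cxcl1 (1.12) stands apart on the right.

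Receptors were sparse apart from the atypical, scavenging ones. Of 23 listed receptors, 8 passed the filter on low counts. Ackr3, which takes up Cxcl12, was 54.1 to 109 CPM in control male ASC1 and 328 to 989 in ASC2 (2.80 ± 0.32, adjusted p = 2.51e-09), the opposite order to its ligand. It was higher in ASC2 of control females (3.31 ± 0.31, adjusted p = 7.39e-12) and castrated males (2.68 ± 0.31, adjusted p = 7.73e-09) too, but not detectably so in ovariectomized females (-0.16 ± 0.38, adjusted p = 0.763), where the 3 ASC1 libraries held 413 to 488 CPM. Ackr2, a scavenger of inflammatory CC chemokines, differed in the same 3 conditions (3.63 ± 0.48 in control males, adjusted p = 1.48e-07), as did Ackr1. Ackr4, the scavenger of CCR7 ligands, was higher in castrated than control male ASC1 (2.71 ± 0.78, adjusted p = 0.0443). Castrated ASC1 held 0 to 4 Y-linked reads, so castration and discordant labels cannot be told apart there. Ccr1, the receptor of Ccl6 and Ccl9, was lower in ASC2 than ASC1 of control males (-1.21 ± 0.42, adjusted p = 0.0495). Receptor calls were not repeated with the alternative settings or covariates. Ccr2, the receptor of Ccl2, had 8 reads in all and Cx3cr1 2.

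Of 15 tested NF-kappaB response genes, 1 was higher and 1 lower in ASC2 than ASC1 of control males (13.3% called, against 12.2% of all genes), 2 were higher in control females (13.3% against 6.11%), 2 were higher and 2 lower in castrated males (26.7% against 9.09%), and 4 were higher and 3 lower in ovariectomized females (46.7% against 35.4%). In ovariectomized against control females, 3 were higher and 5 lower in ASC1 (53.3% against 34.8%), and none passed in ASC2. Between castrated and control males, none passed in either population. The 4 most abundant were Csf1, Nfkbia, Saa3 and Ptgs2. Of 15 interferon response genes, 8 fell with castration in ASC2 (53.3% against 6.96%), with a median over the list of -0.98 log2 units against 0.00 over all genes, among them Irf7 (-1.28 ± 0.35, adjusted p = 0.0161). Cxcl9 and Cxcl10, members of the same response, did not pass there (-0.35 ± 0.73 and -0.35 ± 0.74). The summed interferon list was 1462 to 4838 CPM in control and 586 to 3024 in castrated male ASC2, and these ranges overlap. Calls of genes in the NF-kappaB, interferon and immediate early lists were not repeated with the alternative settings. Of 14 immediate early genes, 8 were higher in ASC2 of control males (57.1% against 12.2%), 9 in control females (64.3% against 6.11%) and 7 in castrated males (50% against 9.09%), and 8 were lower in ASC2 of ovariectomized females (57.1% against 35.4%). In ASC2, 5 fell with castration (35.7% against 6.96%) and 6 with ovariectomy (42.9% against 2.09%), and in ASC1 10 rose with ovariectomy (71.4% against 34.8%).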

How the data were processed

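RNA of sorted ASC1 and ASC2 was made into Smart-seq3 libraries on a 384-well plate after RNA amounts had been equalised. The authors quantified reads with Salmon 1.9.0 on Gencode transcripts (GRCm39), summed UMI and other reads per gene, used STAR 2.7.10a, FastQC 0.11.9 and MultiQC 1.12 for quality control, and removed shallow libraries. The deposited values are expected counts (estimated counts), of which 15.0% were not whole (tolerance 1e-06), and they were rounded here. Amplification reads are not independent molecules, so intervals and limits cover counting error only.

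Of 56953 identifiers, 52029 matched a symbol. Transcript lengths came from a GRCm38 annotation, used for names and lengths only. The filter described above left 12464 genes, which were fitted in edgeR 4.0.16 (R 4.3.3, limma 3.58.1) with TMM scaling, 1 mean for each of 8 groups, the quasi-likelihood test and Benjamini-Hochberg adjustment over all genes at 0.05. The biological coefficient of variation was 35.6%. The procedure was tested on simulated data. No pair of libraries of a group agreed within sampling noise. The text names the 25 members that passed the filter. Alternatives were RLE and library-size scaling, other count filters, robust estimation, fits of the compared groups only, DESeq2 1.42.0, leaving out libraries, and a plate-row block. The covariate fits, the slopes, and the values of Cxcl2 and Cxcl13 without 1 high library were added after the data were seen. The members and gene lists were chosen with earlier results of these data known.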

Additional observations from a re-analysis of the deposited data

Results flagged for a closer look

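In 175 combinations of a tested ligand and a group of 7 or 8 libraries, 21 had a library far from the others by Dixon's criterion. Its rate of about 1 in 20 by chance holds for normally distributed values. Several groups here hold zeros or split into separate levels, so no excess over chance can be read from the 21. Ccl2 was 300.4 CPM in castrated male ASC2 row K and 1341 to 2118 in the other 7. The same library had the highest Cxcl1 (90.0 CPM, others 6.37 to 42.0), Cxcl2 (18.9, others 0 to 6.38) and Cxcl5 (27.6, others 0 to 11.5) of its group, so 4 of the 21 cases came from it. Cxcl1 was also high in control male ASC2 row H (215 CPM, others 31.8 to 114) and control female ASC2 row E (155, others 13.6 to 76.3).

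Cxcl10 was 158 CPM in control male ASC1 row B (others 1.74 to 15.7) and 109 in ovariectomized ASC2 row M (others 0 to 19.2). Control male ASC1 row B also had the highest Ccl5 of its group (22.9, others 2.85 to 10.9). Cxcl13 reached 134 CPM in control female ASC2 row G (others 7.34 to 50.7), and Cxcl16 68.8 in control male ASC2 row A (others 6.36 to 33.2). Cx3cl1 was 38.1 CPM in control female ASC1 row F (others 4.84 to 18.1) and 51.9 in control male ASC2 row G (others 15.6 to 30.4). The remaining cases rest on few reads. Ccl21a was 7.98 CPM in castrated male ASC2 row L and 4.72 in control male ASC2 row G, and Ccl4 was 14 in control female ASC2 row B. Cxcl2 was 7.26 CPM in control female ASC1 row B, 2.87 in castrated male ASC1 row L and 6.95 in control male ASC1 row F. Cxcl5 was 4.24 CPM in control male ASC2 row E, and Cxcl9 was 0.93 in ovariectomized ASC2 row K, from 1 read.

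The test of a difference between effects (edgeR interaction terms, adjusted over all genes) passed for 16 of 100 combinations of ligand and contrast. The castration effect was higher in ASC2 than ASC1 for Ccl6 (2.39 ± 0.51, adjusted p = 0.00331), Ccl9 (2.90 ± 0.51, adjusted p = 0.000332) and Pf4 (2.04 ± 0.45, adjusted p = 0.0047). With the leukocyte marker level as a covariate these were -0.38 (adjusted p = 0.596), 0.65 (adjusted p = 0.426) and 0.66 (adjusted p = 0.468), and the 5 libraries highest in those markers are in these groups (control male ASC1 rows B to D and castrated male ASC2 rows I and J). The ovariectomy effect was higher in ASC2 than ASC1 for Ccl2 (3.17 ± 0.82), Ccl7 (2.14 ± 0.65), Ccl6 (7.36 ± 0.93), Ccl9 (6.06 ± 1.21), Ccl12 (4.87 ± 1.06), Pf4 (7.98 ± 0.95) and Cxcl5 (8.33 ± 1.87). It was lower for Ccl11 (-1.74 ± 0.65), Ccl19 (-5.01 ± 1.04), Cxcl1 (-4.41 ± 0.70), Cxcl13 (-6.34 ± 1.01) and Cxcl9 (-5.63 ± 1.43). These 12 rest on the 3 ovariectomized ASC1 libraries. Fitted values of Cxcl5, Cxcl9, Pf4, Ccl9 and Ccl12 depend on the prior count, since a group held 2 reads or fewer. Over all genes the median of this contrast was 0.40. In ASC2, the castration effect on Ccl8 minus its ovariectomy effect was -2.09 ± 0.54 (adjusted p = 0.0490; 0.0762 with robust estimation).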

How the results depend on the processing

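Counts of ligands called are compared with those of the report. Of 93 single calls, RLE scaling kept 93, and DESeq2 kept 90 of the 90 it could give. The immediate early covariate kept 45, lost 42 and turned 6, and the leukocyte covariate kept 66, lost 23 and turned 4. Both were added after the data were seen, and they share variation with the groups. Where the sums of the compared groups do not overlap, as between castrated ASC1 and ASC2, such fits extrapolate. With the immediate early covariate, calls between ASC2 and ASC1 numbered 5 in control males, 2 in castrated males, 1 in control females and 9 in ovariectomized females; castration gave 2 in ASC1, ovariectomy 7 in ASC1 and 0 in ASC2, the ovariectomy interaction 5, and castration against ovariectomy in ASC2 2. With the leukocyte covariate, castration in ASC2 gave 2, the ASC2 sex comparison 5, the castration interaction 1 and castration against ovariectomy 0. Without a count filter there were 8 calls for castration in ASC1 and 8 in ASC2, 5 for ovariectomy in ASC2, 6 for the ASC2 sex comparison, 5 for the castration interaction, 2 for castration against ovariectomy and 1 for the sex interaction. DESeq2 gave 5 for the castration interaction. Fitting only the compared groups gave 3 for castration in ASC2, 2 for the ASC1 sex comparison and 0 for castration against ovariectomy. That last comparison had 1 call in the report, 2 with RLE, library-size scaling, filterByExpr or DESeq2, and 0 with robust estimation. Ovariectomy in ASC2 gave 0 calls with library size only and 1 with filterByExpr.

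Without libraries whose sex-chromosome reads went against or mixed their labels, the control female comparison of ASC2 and ASC1 gave 1 call, ovariectomy in ASC2 0, the ASC1 sex comparison 0, castration against ovariectomy 0 and the sex interaction 1. Of 77 single calls that could be repeated, 51 were kept, 22 lost and 4 turned. Differences turned there for Ccl8 (0.24, ASC2 over ASC1 in control males), Cxcl12 (0.43, ASC2 over ASC1 in control females), and Ccl8 (-0.31) and Ccl11 (-0.57) between the sexes in ASC1. With the leukocyte covariate they turned for Ccl6 (-0.44) and Ccl9 (-0.025) between castrated ASC2 and ASC1, Ccl11 (-0.037) after ovariectomy in ASC1 and the castration interaction of Ccl6 (-0.38). With the immediate early covariate they turned for Cxcl1 in control females (-0.63) and ovariectomized females (0.30) between ASC2 and ASC1, after castration in ASC2 (0.048), after ovariectomy in ASC1 (-0.58) and in the ovariectomy interaction (0.93), and for Cxcl10 in control females (-0.0046). Apart from the covariates and left-out libraries, whose construction is given, the cause was not tested. Leaving out 1 ovariectomized ASC1 library at a time gave 8 to 13 calls between ASC2 and ASC1 (8 without row L), 12 to 15 after ovariectomy in ASC1 and 11 to 13 in the interaction.

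Whether row letters pair libraries could not be settled, since same-letter correlations were taken without pairs of different letters as a reference. Correlations of same-letter deviations between ASC2 and ASC1 were over 0.1 in 2 of 7 pairs of control males (0.053 to 0.192) and 0 of 8 of castrated males. In control females 3 of 8 were, and in ovariectomized females 0 of 3. Between the sexes, 5 of 7 pairs in ASC1 (median 0.155) and 3 of 8 in ASC2 were over 0.1. With the replicate block, 39 of 50 single calls were kept and 11 lost, and ASC2 and ASC1 differed for 10, 6, 9 and 11 ligands in control males, castrated males, control females and ovariectomized females, the sexes for 6 in ASC1 and 3 in ASC2, and the sex interaction for 1. The slopes on the leukocyte sum numbered 5 with the replicate block and 2 without the 5 libraries highest in it. Depth limits members under about 5 CPM, and 3 libraries limit every result of ovariectomized ASC1.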
